A study of Mus musculus with 8 samples.

Results

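The Robo, Slit and netrin guidance genes are 10 genes of one system of axon and cell guidance: the receptors Robo1, Robo2, Robo3, Unc5b, Unc5c and Dcc, and the secreted ligands Slit1, Slit2, Slit3 and Ntn1. They were taken by gene symbol from a table of 14954 genes, and all 10 had 1 row each. RNA had been sequenced from 8 cultures of cortical progenitors differentiated from mouse embryonic stem cells of 1 line, A2 lox.Cre Bcl6, in which doxycycline switches on a Bcl6 transgene. Both groups had been grown in DDM medium, had earlier received cyclopamine, which blocks hedgehog signalling, at 400 ng/ml, and were taken at differentiation day 12. The 4 control cultures had received DMSO for 24 h and the 4 induced cultures 1 µg/ml doxycycline for 24 h. The labels number the differentiations 1 to 4 in each group without stating whether they were started separately. The p-values below therefore describe only the scatter among these libraries, which may be technical. No doxycycline-treated culture without the transgene is among the samples, so the effects of Bcl6 and of doxycycline cannot be told apart here.

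Slit proteins bind Robo1 and Robo2 on growing axons and migrating neurons and repel them. Mammalian Robo3 differs from its relatives: it does not respond to Slits as a repulsive receptor, it binds Nell2, and in commissural axons it lets the growth cone approach and cross the midline. Netrin 1, the product of Ntn1, attracts axons through Dcc and repels them through receptors of the Unc5 family, alone or together with Dcc. In the neural tube Ntn1 and the Slits are made by the floor plate at the ventral midline, and Ntn1 also by neural progenitors. In the developing cortex Robo receptors and Slits act in progenitor division, neuron migration and axon tract formation.

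Bcl6, a transcriptional repressor, stood at 6.01 to 7.12 CPM (reads per 1 M reads of the library) in the controls and 324.6 to 426.8 CPM in the induced libraries, so the labels and the transgene go together. The reads behind the libraries numbered 9.42 M to 9.74 M in the controls and 10.33 M to 15.02 M in the induced cultures. Every control was shallower than every induced library. In control 1 levels went with transcript length: relative to the control mean, the median log2 deviation was -0.44 among the longest 10% of transcripts and 0.32 among the shortest 10%. The other libraries differed less: among the longest 10% it was 0.01, 0.23 and 0.19 in controls 2 to 4. In the induced libraries it was -0.09 to 0.07, relative to the induced mean. The guidance genes have long transcripts, of 4797 to 10323 bases, and for each of them the value without control 1 is therefore given too. Markers of radial glia were detected in every library, with Pax6 at 18.5 to 24.2 CPM in the controls and 10.9 to 23.1 CPM in the induced libraries. Hes5, another of these markers, was near the detection limit in induced libraries 1 and 2, at 0.20 and 0.30 CPM. Markers of other cells were present too: the floor plate genes Foxa2 (20.1 to 33.4 CPM in the controls) and Shh (19.4 to 35.2 CPM), and the pluripotency factor Pou5f1 (456.2 to 613.5 CPM).

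Of the 10 guidance genes, 3 receptors rose after induction (Robo2, Robo3 and Unc5b), 1 ligand fell (Ntn1), and 6 did not pass the test. The test was limma on log2(scaled reads + 1) over all genes with Benjamini-Hochberg adjustment, and a gene was called at an adjusted p under 0.05. Over all genes 6.81% were called, 4.55% higher and 2.26% lower. In bulk RNA, fewer cells of a type and less RNA per cell cannot be told apart, and that holds for each value below. Fold changes are on the log2(scaled reads + 1) scale, and levels are CPM with mean ± SD.

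**Figure D1:**
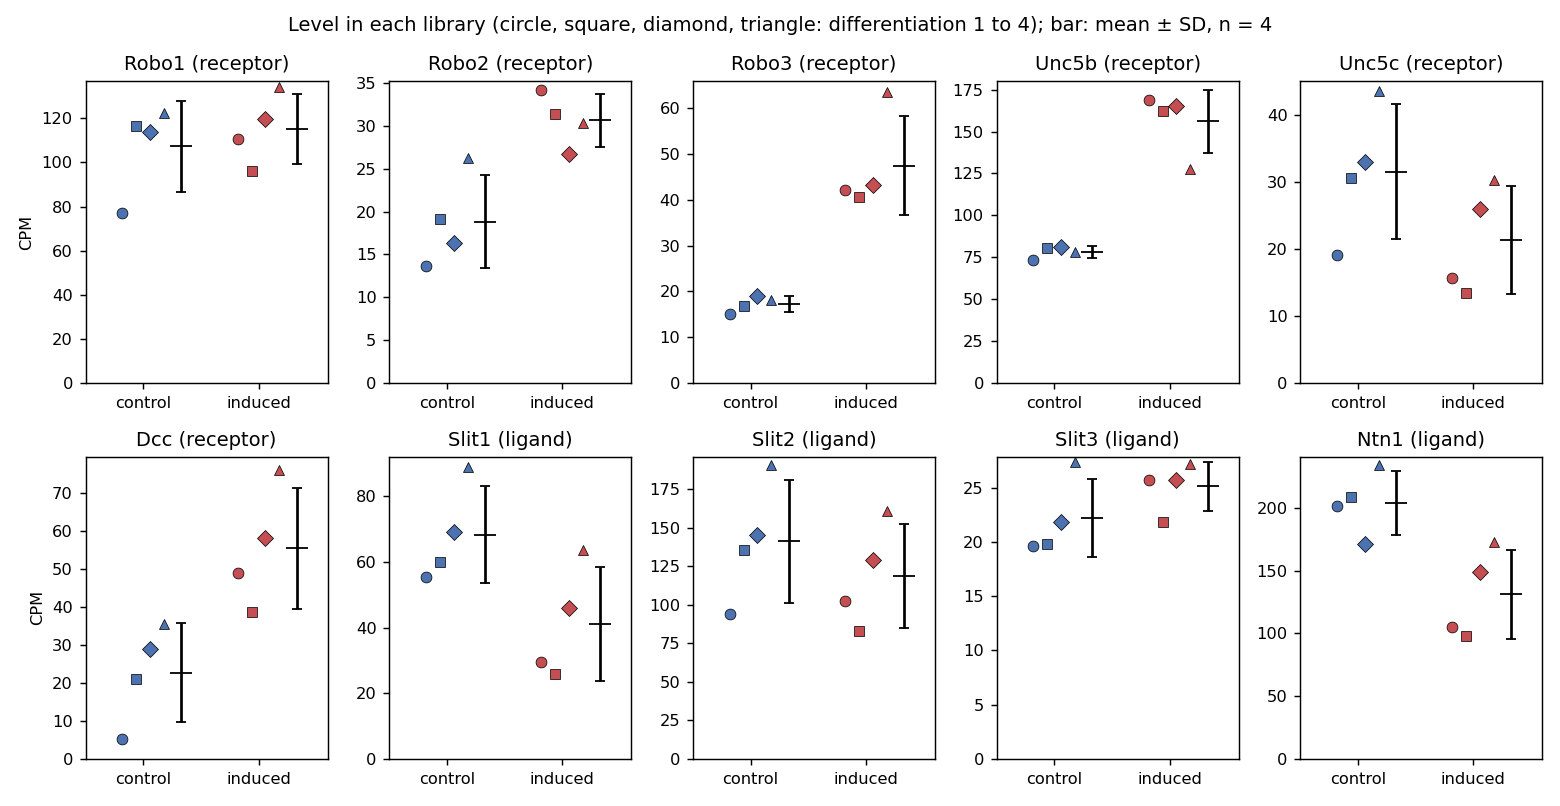
Level of each of the 10 guidance genes in CPM (vertical axis, starting at 0) in the 4 control and 4 induced libraries, with symbols for the differentiation number and a bar for the mean ± SD. Robo3 and Unc5b separate the groups widely, control 1 is the lowest control for Robo1, Robo2, Robo3, Unc5b, Unc5c, Dcc, Slit1, Slit2 and Slit3, and Ntn1 overlaps between the groups by 1 control and 1 induced library.

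Among the Robo receptors, Robo3 changed most. Robo3 (ENSMUSG00000032128, chromosome 9, 37415669 to 37433246, minus strand, mm10) was at 15.0, 16.8, 19.0 and 18.1 CPM in controls 1 to 4 and at 42.1, 40.6, 43.2 and 63.4 CPM in induced libraries 1 to 4. The groups were far apart, and induced library 4 was the highest. The mean rose from 17.2 ± 1.76 to 47.3 ± 10.8 CPM (n = 4 each). The fitted log2 difference was 1.44 ± 0.14 (SE), at a limma adjusted p of 0.00064. The call held without any single library, with log2 fold changes of 1.29 to 1.5 (1.37 without control 1). Robo3 rested on 141 to 185 reads per control and 448 to 655 per induced library.

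Robo4, the endothelial relative that lies beside Robo3 on chromosome 9 on the other strand, was near the detection limit in all 8 libraries, at 1.43 ± 0.35 and 1.43 ± 0.69 CPM (log2 fold change -0.06 ± 0.33, limma adjusted p = 0.93). The gene with the profile closest to that of Robo3 over the 8 libraries was Cntn2, a neuronal adhesion molecule (Pearson r = 0.981), followed by the transcription factor Tfap2b (0.978) and by Ankrd13a (0.974). These correlations mostly follow the difference between the 2 groups and are a description.

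Robo2 (ENSMUSG00000052516, chromosome 16, 73891839 to 74411825, minus strand), a Slit receptor, was at 13.6, 19.1, 16.4 and 26.2 CPM in controls 1 to 4 and at 34.2, 31.4, 26.7 and 30.3 CPM in the induced libraries. The highest control, number 4, lay just under the lowest induced library, number 3. The log2 fold change was 0.74 ± 0.17 (limma adjusted p = 0.031), and 0.60 ± 0.15 without control 1 (adjusted p = 0.028). The call was lost without 5 of the 8 libraries (controls 2 and 3, induced libraries 1, 2 and 4), with adjusted p values of up to 0.11. Its closest profiles were those of Eps8l2 (r = 0.989), the secreted guidance cue Sema3e (0.982) and Map4k5 (0.982).

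Robo1 (ENSMUSG00000022883, chromosome 16, 72308306 to 73046095, plus strand), the most abundant Robo, is on the same chromosome as Robo2. It stood at 77.0, 116.5, 113.7 and 122.2 CPM in the controls and at 110.5, 96.2, 119.6 and 134.0 CPM in the induced libraries, so the groups overlapped. The log2 fold change was 0.11 with a 95% interval of -0.21 to 0.44 (limma adjusted p = 0.68). It was -0.04 ± 0.10 without control 1, in which Robo1 was lowest.

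Of the netrin receptors, Unc5b rose with a small spread in the controls. Unc5b (ENSMUSG00000020099, chromosome 10, 60762593 to 60831581, minus strand), a repulsive netrin receptor also known from endothelial tip cells, was at 73.6, 80.8, 81.0 and 77.9 CPM in controls 1 to 4 and at 168.9, 162.4, 165.0 and 127.9 CPM in the induced libraries. Each induced library lay above each control, and induced library 4 was the lowest of its group. The mean went from 78.3 ± 3.47 to 156.0 ± 18.9 CPM, which is 0.99 ± 0.09 on the log2 scale (limma adjusted p = 0.00043). The call held without any single library (log2 fold change 0.95 to 1.08, and 0.96 without control 1). Unc5b rested on 693 to 2537 reads per library.

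Among endothelial markers, Cdh5 averaged 1.63 ± 0.52 (controls) and 3.13 ± 0.31 CPM (induced), without overlap (limma adjusted p = 0.054, and 0.039 without control 1). Kdr was at 4.21 ± 0.83 and 5.80 ± 0.17 CPM, also without overlap (adjusted p = 0.11). Pecam1, the most abundant of them, was at 29.9 ± 5.12 and 39.1 ± 3.51 CPM, with overlapping groups (adjusted p = 0.084). Tek went the other way, at 24.6 ± 2.53 and 16.3 ± 3.12 CPM (adjusted p = 0.028). The median log2 fold change of the list was 0.44. The 4 endothelial markers measured, Pecam1, Cdh5, Kdr and Tek, summed to 51.6 to 67.3 CPM (controls) and 56.5 to 71.7 CPM (induced), with none called higher and Tek called lower. Tie1 was not in the table. The part of such cells in the rise of Unc5b was not tested. The profiles closest to Unc5b were Gm11914 (r = 0.996), the semaphorin receptor Plxnd1 (0.995) and the diacylglycerol kinase Dgkk (0.992).

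Sequence before the annotated starts of Robo3 and Unc5b is shown because these receptors rose with the smallest adjusted p values of the 10 genes. They are from RefSeq (GRCm38.p6, the assembly of mm10), minus strand, with GC boxes (GGGCGG or its reverse complement CCGCCC) in capitals. For Unc5b these are the 250 bases before the RefSeq start. The RefSeq start of Robo3 lies inside the gene as GENCODE has it, so the 71 bases of its window that fall within the gene are left out and 179 are shown.
Robo3 promoter, chr9:37433247-37433425: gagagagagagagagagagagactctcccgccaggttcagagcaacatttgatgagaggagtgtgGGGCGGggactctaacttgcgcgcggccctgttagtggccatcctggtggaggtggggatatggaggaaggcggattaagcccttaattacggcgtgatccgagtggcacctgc
Unc5b promoter, chr10:60831582-60831831: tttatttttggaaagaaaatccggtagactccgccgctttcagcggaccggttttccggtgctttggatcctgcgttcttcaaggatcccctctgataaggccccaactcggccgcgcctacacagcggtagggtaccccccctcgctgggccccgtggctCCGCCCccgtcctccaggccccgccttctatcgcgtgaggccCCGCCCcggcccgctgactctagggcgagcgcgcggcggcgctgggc
The Robo3 sequence held 1 GC box and the Unc5b sequence 2. Promoter windows of Slit2 and Slit3, which did not pass the test, held a GC box too. A GC box on either strand was in 32.74% of the 32851 promoter windows of 250 bases, so these matches are common. The RefSeq table held 9 start sites for 7 of the 10 genes, and the Bcl6 motif TTCCTNGAA (both strands) was in none of the 9, against 1.31% of all windows. That says only that these letters are not in these windows.

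Dcc, the attractive netrin receptor (ENSMUSG00000060534, chromosome 18, 71253634 to 72351069, minus strand), had a larger log2 fold change than Robo3 with all 8 libraries and a smaller one without control 1, and did not pass the main test. Dcc was at 5.31, 20.99, 28.9 and 35.5 CPM in controls 1 to 4 and at 49.0, 38.6, 58.1 and 76.0 CPM in the induced libraries. Every induced library lay above every control, and control 1 stood far below the other controls, on 50 reads against 199 to 339. The log2 fold change was 1.54 ± 0.48 (limma adjusted p = 0.083). Without control 1 it was smaller and passed the test, at 0.95 ± 0.22 (adjusted p = 0.022), from 28.5 ± 7.28 CPM (n = 3) to 55.4 ± 15.9 CPM (n = 4). With the trend on transcript length taken off each library it was 1.36 ± 0.34 (adjusted p = 0.022). Dcc has the longest transcript of the 10 genes, and its log2 deviation in control 1 was -1.78, further from 0 than the median of -0.44 among the longest 10% of transcripts.

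Unc5c (ENSMUSG00000059921, chromosome 3, 141465216 to 141834924, plus strand), a repulsive netrin receptor, went the other way from Unc5b in the point estimate. It was at 19.1, 30.6, 33.1 and 43.6 CPM in the controls and at 15.7, 13.4, 26.0 and 30.3 CPM in the induced libraries, and the groups overlapped. Induced libraries 1 and 2 lay below all controls. The log2 fold change was -0.58 with a 95% interval of -1.21 to 0.05 (limma adjusted p = 0.24). It was -0.80 ± 0.25 without control 1 (adjusted p = 0.067) and passed the test with the transcript-length trend off (-0.76 ± 0.21, adjusted p = 0.034).

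**Figure D2:**
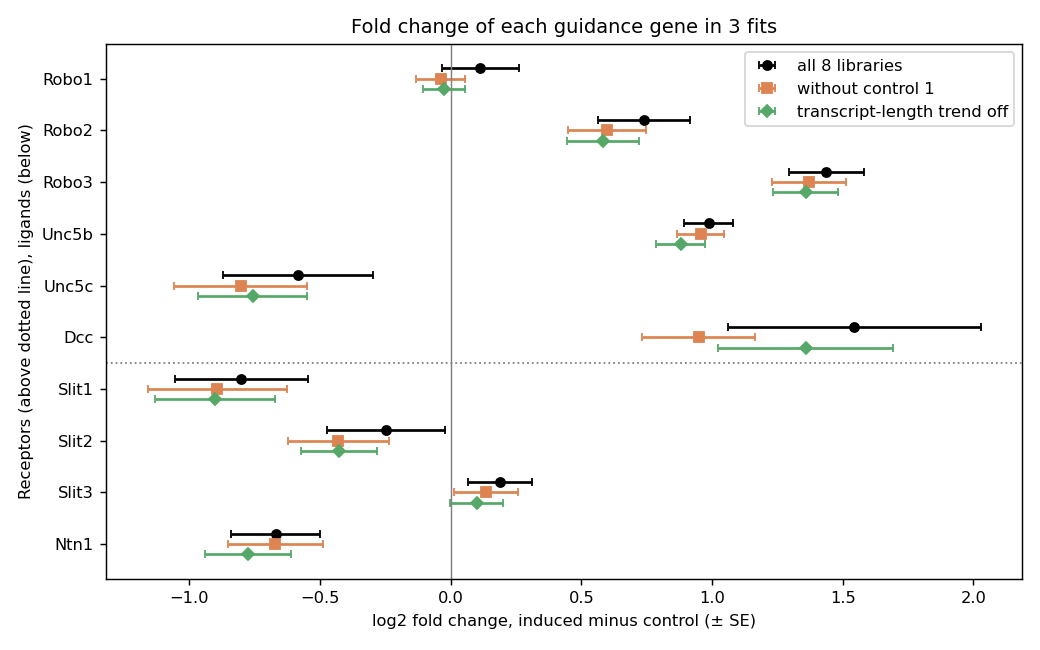
Log2 fold change, induced minus control (horizontal axis, bars ± SE), of the 6 receptors and 4 ligands with all 8 libraries, without control 1, and with the transcript-length trend taken off. Dcc moves from 1.54 to 0.95 without control 1, while Robo3 stays at 1.36 to 1.44, Unc5b at 0.88 to 0.99 and Ntn1 at -0.67 to -0.78.

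Among the ligands, Ntn1 was the most abundant and the one that fell. Ntn1 (ENSMUSG00000020902, chromosome 11, 68209364 to 68400823, minus strand) was at 201.8, 208.8, 171.6 and 233.9 CPM in controls 1 to 4 and at 105.0, 97.8, 148.7 and 172.7 CPM in the induced libraries. Control 3 lay just below induced library 4, and the other libraries of the groups did not overlap. The mean fell from 204.0 ± 25.6 to 131.1 ± 35.7 CPM, a log2 fold change of -0.67 ± 0.17 (limma adjusted p = 0.041; -0.67 ± 0.18 and adjusted p = 0.039 without control 1). The call was lost without 5 of the 8 libraries (controls 2 and 4, induced libraries 1, 2 and 3), with adjusted p values of up to 0.14.

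The profiles closest to that of Ntn1 were Dtx4 (r = 0.998), Stxbp6 (0.993) and Spon1 (0.993), and Spon1, a secreted floor plate protein, was on the floor plate marker list. Spon1 was at 113.0, 117.9, 99.9 and 132.4 CPM in the controls and at 41.6, 36.7, 68.8 and 84.9 CPM in the induced libraries (log2 fold change -1.08, limma adjusted p = 0.022). Of the 6 floor plate markers (Foxa2, Shh, Spon1, Corin, Ferd3l and Nkx6-1) Spon1 alone passed the test, the median log2 fold change was -0.33, and their sum was 184.6 to 250.5 CPM (controls) and 114.5 to 198.0 CPM (induced). Spon1 was the most abundant of the 6 and weighed most in this sum. The other markers had log2 fold changes of -0.24 (Foxa2), -0.40 (Shh), -0.265 (Corin), -0.68 (Ferd3l) and 0.04 (Nkx6-1). The part of floor plate cells in the fall of Ntn1 was not tested.

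The 3 Slit genes did not pass the test. Slit1 (ENSMUSG00000025020, chromosome 19, 41600257 to 41743665, minus strand) was at 55.5, 60.1, 69.1 and 88.9 CPM in the controls and at 29.4, 25.8, 45.9 and 63.8 CPM in the induced libraries. Induced libraries 1 to 3 lay below all controls, and induced library 4 lay among them. The log2 fold change was -0.80 ± 0.26 (limma adjusted p = 0.087, and -0.89 with adjusted p = 0.055 without control 1), and leaving out induced library 4 brought it past the threshold (-1.04, adjusted p = 0.023), as did the fit with the transcript-length trend off (-0.90 ± 0.23, adjusted p = 0.025).

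Slit2 (ENSMUSG00000031558, chromosome 5, 47983138 to 48307733, plus strand), the most abundant Slit, was at 93.8, 135.4, 145.5 and 190.9 CPM in the controls and at 102.3, 83.4, 129.1 and 160.9 CPM after induction. The groups overlapped widely (log2 fold change -0.25, 95% interval -0.74 to 0.25, limma adjusted p = 0.54). The value was -0.43 without control 1 (adjusted p = 0.17), -0.09 without control 4 and -0.09 without induced library 2. With the transcript-length trend off it was -0.43 (adjusted p = 0.074). Slit3 (ENSMUSG00000056427, chromosome 11, 35121224 to 35708507, plus strand) was at 19.6, 19.8, 21.9 and 27.4 CPM in the controls and at 25.8, 21.8, 25.7 and 27.2 CPM after induction. Its groups overlapped too (log2 fold change 0.19, 95% interval -0.08 to 0.46, limma adjusted p = 0.38, and 0.13 with adjusted p = 0.5 without control 1).

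Set side by side with all 8 libraries, 5 of 6 receptors had a log2 fold change above 0 and 3 of 4 ligands had one below 0. The median was 0.86 over the receptors and -0.46 over the ligands, beside 0.03 over all genes. Without control 1 the medians were 0.77 and -0.55, and 4 receptors and no ligand were called higher and 1 ligand lower, where 7.66% of all genes were called higher and 3.68% lower. With the transcript-length trend off the medians were 0.73 and -0.60. In that fit 4 receptors were called higher, and 1 receptor and 2 ligands lower, where 6.51% of all genes were called higher and 6.77% lower. With all 8 libraries the receptor that departed was Unc5c, and the ligand that departed was Slit3. Robo1 counted as above 0 at 0.11, and was at -0.04 without control 1 and -0.03 with the transcript-length trend off. The groups did not overlap for 4 receptors (Robo2, Robo3, Unc5b and Dcc, all higher) and for no ligand. Over all genes 17.1% did not overlap, 10.8% with the induced libraries higher and 6.32% with them lower.

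The induced libraries were not equally far from the controls. Relative to the control mean, the 4 ligands averaged -0.58, -0.79, -0.21 and 0.06 (log2) in induced libraries 1 to 4, and -0.25, -0.07, -0.03 and 0.35 in controls 1 to 4. The 6 receptors averaged 0.64, 0.47, 0.76 and 0.95 in the induced libraries and -0.60, 0.07, 0.15 and 0.38 in the controls. The ligand deficit was thus larger in induced libraries 1 and 2 than in 3 and 4, and induced library 4 had no ligand deficit on average. Slit1, Slit2, Unc5c, Ntn1, Robo1, Robo3 and Dcc had the same order in the induced libraries, lowest in library 2, then 1, 3 and 4. The receptor averages had that order too, so it was not particular to the genes with lower levels after induction. Unc5b was lowest and Robo3 highest in library 4.

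**Figure D3:**
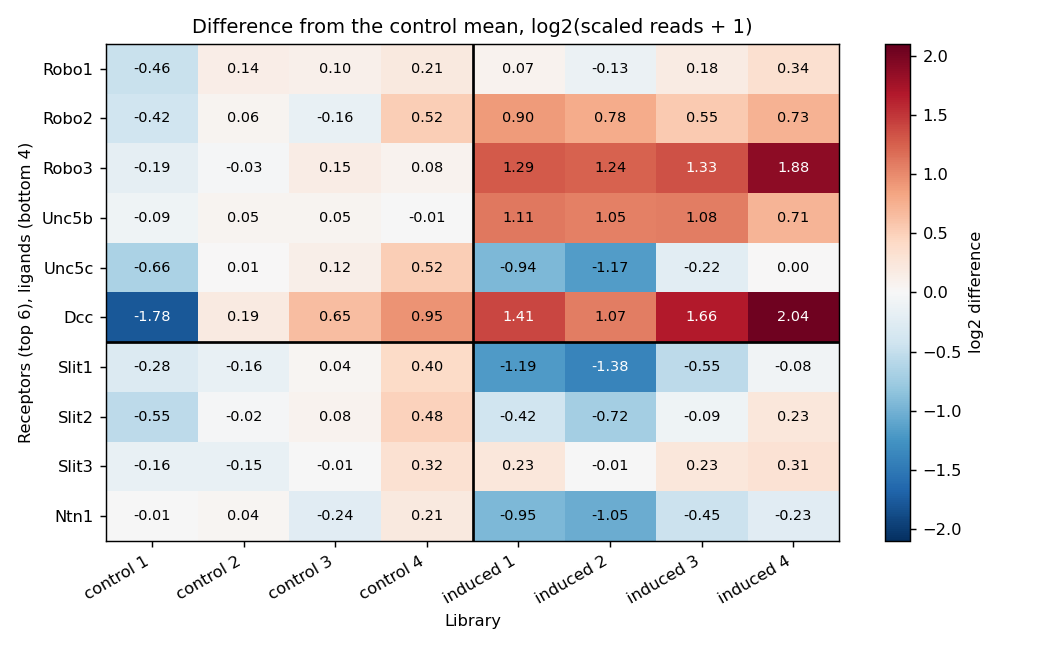
Difference of each library from the control mean on the log2(scaled reads + 1) scale, for the 6 receptors (top) and 4 ligands (bottom), with the value printed in each cell. Robo3 is at 1.24 to 1.88 in the induced libraries, and Ntn1 at -0.95, -1.05, -0.45 and -0.23.

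Ratios of 2 guidance genes within a library showed unequal change, and do not depend on the scaling between libraries. A trend on transcript length does not cancel where the transcripts differ in length, as for Dcc (10323 bases) and Ntn1 (5874 bases). The part of transcript length in these ratios was not tested. Each of 6 ratios was compared between the groups by a two-sided exact permutation test over the 70 assignments of 4 against 4 libraries, where the smallest p possible is 0.0286, with Benjamini-Hochberg adjustment over the 6. The log2 ratio of Robo3 to Robo1 went from -2.62 ± 0.20 to -1.30 ± 0.17 (difference 1.32), higher in 4 of 4 induced libraries than in any control (exact p = 0.0286, adjusted p = 0.0343). The ratio of Robo2 to Robo1 rose by 0.63 (exact p = 0.0286, adjusted p = 0.0343). Its groups were close, with -2.22 in the highest control and -2.16 in the lowest induced library.

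The ratio of Unc5c to Unc5b went from -1.37 ± 0.45 to -2.94 ± 0.70 on the log2 scale (difference -1.57), with exact p = 0.0286 and adjusted p = 0.0343. Dcc relative to its ligand Ntn1 went from -3.46 ± 1.23 to -1.25 ± 0.12 (difference 2.21, and 1.62 without control 1), also with exact p = 0.0286 and adjusted p = 0.0343. Slit1 relative to Slit2 went from -1.03 ± 0.18 to -1.58 ± 0.21, a difference of -0.55 (exact p = 0.0286, adjusted p = 0.0343). Slit3 relative to Slit2 differed by 0.44, with overlapping groups and exact p = 0.0857 (adjusted p = 0.0857). The 4 induced libraries thus held more Robo3 per Robo1, more Dcc per Ntn1 and less Unc5c per Unc5b than any control.

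**Figure D4:**
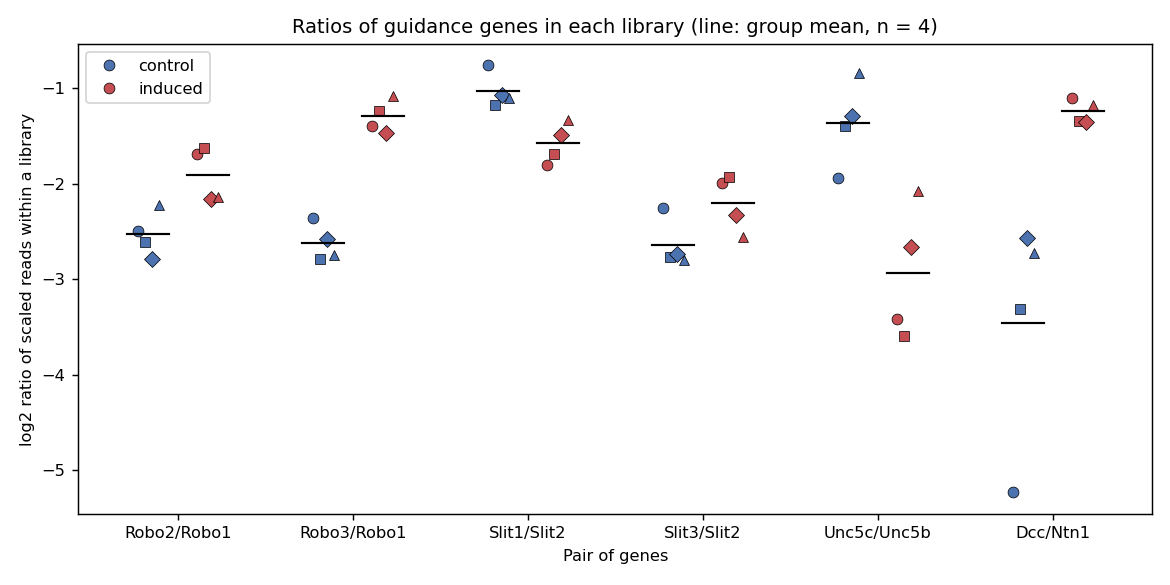
Log2 ratio of the scaled reads of 2 genes within each library (vertical axis), for 6 pairs, in control and induced libraries, with a line at each group mean. The groups are apart for every pair except Slit3 to Slit2, and control 1 is the lowest point for Dcc to Ntn1, at -5.23.

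Between genes, levels are compared as CPM per kilobase of the longest protein-coding transcript. In the controls Ntn1 was highest at a mean of 34.7 CPM per kb. Slit2, Robo1, Unc5b and Slit1 followed at 14.2, 14.2, 13.3 and 12.1 CPM per kb, and their ranges over the controls overlapped. Slit3, Robo3, Unc5c, Dcc and Robo2 were at 4.24, 3.59, 3.28, 2.20 and 2.19 CPM per kb, each overlapping its neighbour in this order. The ranges of Slit1 and Slit3 did not overlap, nor those of Ntn1 and Slit2. After induction Unc5b was at 26.6 CPM per kb (21.8 to 28.8) and Ntn1 at 22.3 CPM per kb (16.7 to 29.4), with overlapping ranges. Robo1 and Slit2 followed at 15.2 and 11.9 CPM per kb. Robo3 was at 9.87 CPM per kb, overlapped Slit1 (7.26) and Slit2, and lay above the ranges of Slit3 (4.81), Unc5c (2.22), Dcc (5.37) and Robo2 (3.57). In the controls the range of Robo3 had overlapped those of Slit3, Unc5c and Dcc, and had already lain above that of Robo2.

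Of 62 measured genes in 5 lists of other receptors, ligands, signalling proteins and cofactors of these pathways, 6 rose, 2 fell and 54 did not pass the test, where 4.55% of all genes rose and 2.26% fell. The median log2 fold change was 0.08, beside 0.03 over all genes. Among 6 other receptors (Robo4, Unc5a, Unc5d, Neo1, Dscam and Dscaml1) none was called (1 had an unadjusted p under 0.05, and 0 were called with limma voom). Neo1, the Dcc relative neogenin, was the most abundant of them at 137.3 ± 24.1 CPM (controls) and 151.3 ± 12.8 CPM (induced) (limma adjusted p = 0.47).

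Of 10 measured ligands and binding partners (Ntn3 and Ntn5 were not in the table), 2 rose and 1 fell. Draxin, a secreted protein that binds Dcc and netrin 1, was at 8.62, 8.27, 7.83 and 12.4 CPM in controls 1 to 4 and 13.3, 14.4, 14.0 and 19.9 CPM with Bcl6 induced (log2 fold change 0.73 ± 0.17, limma adjusted p = 0.032, and up to 0.10 without control 2). The repulsive guidance molecules, ligands of neogenin and coreceptors of BMPs, went in opposite directions. Rgma fell from 112.5 ± 11.9 to 62.2 ± 20.9 CPM (limma adjusted p = 0.024, or 0.076 when induced library 1 was left out), and Rgmb rose from 35.6 ± 4.03 to 53.6 ± 5.87 CPM (adjusted p = 0.011, called without any single library). Nell2, the Robo3 ligand, was at 26.5 ± 3.498 and 27.3 ± 5.33 CPM (adjusted p = 0.93).

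None of 17 genes of Robo signalling passed the test, among them the Slit-Robo GTPase activating proteins Srgap1, Srgap2 and Srgap3. At an unadjusted p under 0.05, 4 of the 17 did, where 23.7% of all genes did, so this count is near the background. With limma voom on the recovered reads 0 of the 17 were called. Of 16 genes of netrin signalling 2 rose: the kinase Src, from 64.9 ± 3.80 to 83.8 ± 1.31 CPM (limma adjusted p = 0.011), and Trim67, a ubiquitin ligase of the family that binds Dcc, from 13.8 ± 1.18 to 23.3 ± 5.97 CPM (overlapping groups, adjusted p = 0.036, and 0.07 with the transcript-length trend off). Of 13 genes that make or carry heparan sulphate, the Slit and netrin cofactor, 2 syndecans rose and 1 fell. Sdc3 rose from 53.4 ± 4.34 to 71.2 ± 5.24 CPM (adjusted p = 0.018) and Sdc4 from 106.5 ± 4.73 to 145.2 ± 19.6 CPM (adjusted p = 0.022), while Sdc1 fell from 69.7 ± 7.58 to 54.97 ± 2.28 CPM (adjusted p = 0.045). These 8 calls numbered 2 without control 2, 1 without induced library 1, 2 without induced library 2 and 5 without induced library 4.

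**Figure D5:**
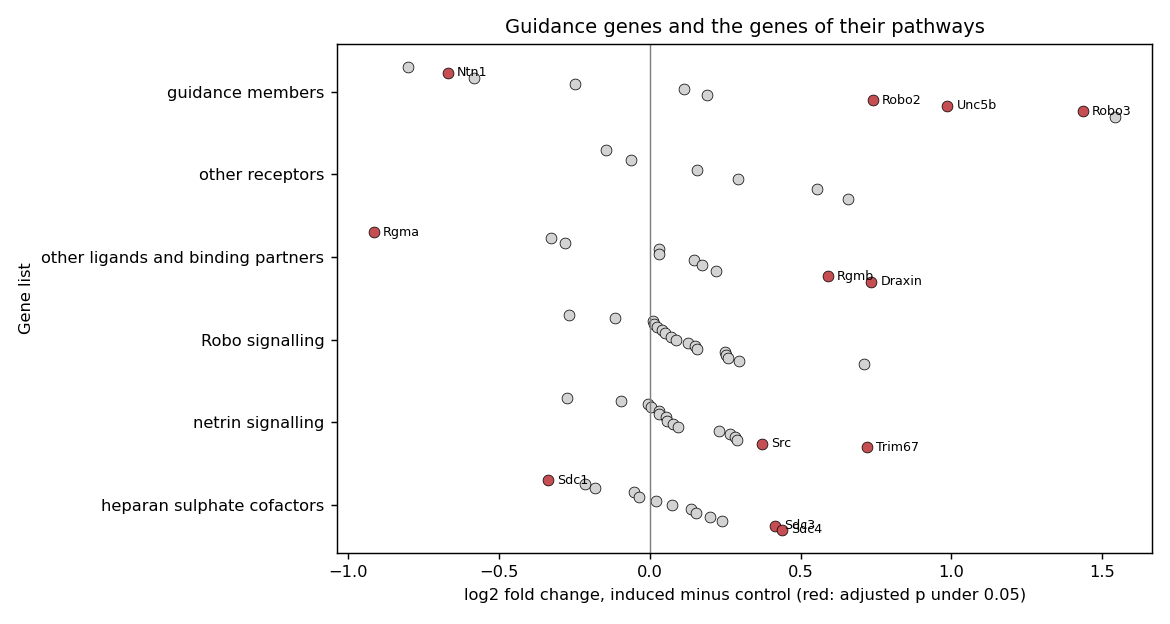
Log2 fold change, induced minus control (horizontal axis), of the 10 guidance genes and of 62 genes in 5 pathway lists, one point per gene, with genes at an adjusted p under 0.05 in red and named. The Robo signalling list holds no called gene, and the called guidance genes reach from -0.67 (Ntn1) to 1.44 (Robo3).

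Most neuronal and radial glia markers differed between the groups too. Of all genes 4.55% were called higher and 2.26% lower. Of 7 neuronal markers 5 were higher and none lower, and the sum over the 7 was 771.8 to 945.5 CPM (controls) and 1263 to 1505 CPM (induced). Stmn2, the most abundant of them in the controls, was at 224.1 ± 36.4 and 219.2 ± 19.7 CPM (limma adjusted p = 0.93). Gap43 was not called either (adjusted p = 0.15, overlapping groups). Of 7 radial glia markers 5 were lower (4 without control 1) and none higher, with sums of 1280 to 1641 CPM and 802.4 to 1146 CPM. Fabp7, a radial glia marker, was at 145.7 to 213.8 CPM in the controls and at 9.47, 14.0, 76.6 and 87.4 CPM in induced libraries 1 to 4, again lower in libraries 1 and 2. Of 4 markers of pluripotent cells 3 were called higher, with sums over the 4 of 864.0 to 936.8 CPM and 885.7 to 1013 CPM. The remaining marker, Pou5f1, was the most abundant and had a log2 fold change below 0. Its mean was 538.2 ± 65.7 CPM (controls) and 443.4 ± 42.0 CPM (induced), with overlapping groups (log2 fold change -0.28, limma adjusted p = 0.13). Of 5 markers of Cajal-Retzius cells and cortical hem 1 was called higher (Lhx1, log2 fold change 0.63, limma adjusted p = 0.023). Wnt3a was lower without overlap but not called (-0.92, adjusted p = 0.091). Reln (0.355), Lhx5 (0.31) and Trp73 (-0.02) were not called and had overlapping groups. Of 5 measured markers of mesenchyme and neural crest and 4 of endoderm none was called. The part of a changed share of neurons or progenitors in the receptor and ligand values was not tested.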

How the data were processed

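mRNA of 4 control and 4 induced cultures had been sequenced with a stranded kit, per the labels' protocols. STAR 2.5.3a, HTSeq 0.9.1, edgeR 3.20.1 and the build mm10 are named in the submitters' processing notes; the strand setting of the counting is not given in the sources used here, and no gene overlapping the 10 genes is in the table. The table the authors deposited holds 14954 genes and, per library, a whole-number score: reads scaled to about 20 M (19.93 to 19.96 M per library) and rounded up, as the values show. At least 99.6% of the values lie on whole multiples of what 1 read is worth, which gave the read numbers. Decimal commas had become column breaks (36 cells under 24 header names) and each line was rejoined, and the authors' own statistics were not used. The lowest gene mean is 15.1 scaled reads, so genes with few reads are not analysed here.

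The main test was limma 3.58.1 (R 4.3.3) with a mean trend on log2(score + 1), on all 14954 genes, without covariates, with Benjamini-Hochberg adjustment. CPM is the score over the library total. Because the values are scaled, the planned edgeR alternative was not run, and limma voom on the recovered reads was added after seeing the data. The transcript-length alternative took off a trend (lowess, span 0.3) over the 14924 genes with a length. Lengths and coordinates are from GENCODE M21 and promoters from RefSeq GRCm38.p6, whose table matched 7 of the 10 genes (no entry for Slit1, Dcc and Ntn1). Simulated data with this design and 14954 genes gave calls for 47.2% of altered genes at 1.5-fold, 74% at 2-fold and 93.3% at 4-fold. Of the calls in those data, 4.9% were false. Whether these shares hold for libraries with a transcript-length trend, such as control 1, was not tested.

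The 10 genes and all gene lists were chosen with earlier results of these data known. Named are the 10 genes, up to 4 called genes per pathway list, Bcl6, and the 3 closest profiles of each called gene among genes with a mean of at least 1 CPM; other genes and the GC box were chosen after their values were seen. Same-numbered libraries deviated together for number 4 alone, so the numbers were not used as a block in the main test.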

Additional observations from a re-analysis of the deposited data

Results flagged for a closer look

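In 3 of the 38 groups of 4 libraries examined, induced library 4 stood apart from the other 3 of its group, by a gap over range above Dixon's 95% critical value. Chance flags about 1 in 20 groups. Robo3 was at 63.4 CPM in induced library 4, above the other 3. Unc5b was at 127.9 CPM there, below the other 3. Sdc1 was at 58.3 CPM there, above the other 3. Without induced library 4 the log2 fold change was 1.29 for Robo3 and 1.08 for Unc5b, both called, and -0.37 for Sdc1, which was not (limma adjusted p = 0.062). Sdc1 lost its call in 6 of the 8 runs that left out 1 library, with adjusted p values of 0.062 to 0.14.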

How the results depend on the processing

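Robo3 and Unc5b were called in every alternative run. Robo2 and Ntn1 were called in every one that kept all 8 libraries and lost the call in 5 of 8 that left out 1. Of all genes, 1019 were called (681 higher, 338 lower), 2507 with array weights (1643 and 864), 1981 with the transcript-length trend off (971 and 1010), 1961 with that trend off and the replicate block (945 and 1016), and 308 (without induced library 1) to 1697 (without control 1) with 1 library left out. Rescaling moved the split to 536 higher and 424 lower (median of ratios) and 501 and 474 (upper quartile). Of the 10 guidance genes 4 were called, 7 with array weights, 7 with the length trend off, 8 with that and the replicate block, and 2 to 5 with 1 library left out. The 8 calls in the pathway lists became 1 to 10 with 1 library left out. The log2 fold change of Robo1, never called, was -0.07 with array weights, -0.03 with the length trend off, -0.03 with that and the replicate block, and -0.04 (without control 1) to 0.20 (without induced library 2) with 1 library left out. The cause of these changes was not tested.

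The labels number the differentiations and do not say whether a number is shared between the groups. Same-numbered libraries had correlations of 0.03, 0.01, -0.03 and 0.37, and 1 of 4 controls (number 4) correlated best with its own number. With the replicate block 827 genes and 6 guidance genes were called, Dcc (limma adjusted p = 0.032) and Slit1 (0.012) being added, and Sdc1 was lost (0.061). Slit2 was called only with the block and the length trend off together (0.027).

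With 1 library left out, the log2 ratio differences were 0.53 to 0.73 for Robo2 to Robo1, 1.25 to 1.41 for Robo3 to Robo1, -0.63 to -0.46 for Slit1 to Slit2, 0.35 to 0.57 for Slit3 to Slit2, -1.86 to -1.35 for Unc5c to Unc5b and 1.62 to 2.51 for Dcc to Ntn1. The exact p rose above 0.05 in 6 of 8 such runs for Robo2 to Robo1, 2 of 8 for Slit1 to Slit2 and 4 of 8 for Unc5c to Unc5b. With 3 against 4 libraries there are 35 assignments, so the step after an exact p of 0.0286 is 0.0571. The planned edgeR alternative was not run.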

Other observations

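Of the pathway genes below the threshold, 3 that were chosen after their values were seen changed their call with control 1 or transcript length. Prrg4, a regulator of Robo1 at the cell surface, averaged 12.5 ± 4.46 CPM (controls) and 19.3 ± 1.36 CPM (induced) (log2 fold change 0.71, limma adjusted p = 0.11, and 0.046 without control 1, where it stood at 6.41 CPM). Vasp, an actin regulator, had a log2 fold change of 0.29 (adjusted p = 0.061, and 0.011 without control 1). Srgap3 was at -0.27 (adjusted p = 0.39, and 0.042 with the transcript-length trend off). Dscam, an adhesion molecule that can act as a netrin receptor, was at 7.18 ± 1.027 and 11.6 ± 3.12 CPM (log2 fold change 0.66, adjusted p = 0.071, 0.095 without control 1 and 0.1 with the length trend off), and did not change its call.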
